A study of Caenorhabditis elegans with 10 samples.

Results

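The 51 genes described here are the glutathione transferases of *C. elegans* and the genes of glutathione synthesis, taken as all genes named *gst-*, *gsto-* or *gstk-* plus a number, together with *gcs-1* and *gss-1*, that had a mean above 0 TPM (transcript abundance scaled to gene length and library total) over the 10 libraries. They were 51 of the 46903 genes of the table, and no gene with such a name was at a mean of 0. There were 44 *gst* genes, 3 *gsto* genes (omega class), 2 *gstk* genes (kappa class) and the 2 synthesis genes. Glutathione transferases couple the tripeptide glutathione to lipid peroxidation products, plant and bacterial toxins and drugs, and some of them reduce peroxides with it. Glutathione itself is made from glutamate, cysteine and glycine by the enzymes of *gcs-1* (gamma-glutamylcysteine synthetase, the rate-limiting step) and *gss-1* (glutathione synthetase). In *C. elegans* the transferase family is large, much of it is expressed in the intestine, and the transcription factor SKN-1 is the best known activator of *gcs-1* and of *gst-4*. The cysteine that glutathione needs can be drawn from homocysteine, which the methionine and S-adenosylmethionine (Met/SAM) cycle otherwise turns back into methionine.

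The 10 libraries came from 5 strains with 2 biological replicates each, and RNA of whole animals was sequenced. The 4 mutants carried *metr-1(ww52)*, *mthf-1(ww50)*, *mtrr-1(ww56)* or *sams-1(ww51)*, point mutations from an ethyl methanesulfonate screen that hit methionine synthase, methylenetetrahydrofolate reductase, methionine synthase reductase and a SAM synthase in this order. The parent carried none of these alleles, and every strain, parent included, had the transgene *wwIs24[Pacdh-1::GFP;unc-119(+)]*, a GFP reporter for vitamin B12 status driven by the *acdh-1* promoter, together with *nhr-10(tm4695)*, a deletion in a nuclear receptor gene. All strains were kept at 0.64 nM vitamin B12 before the experiment, then fed *E. coli* OP50 with 20 nM vitamin B12 for 48 h after synchronisation by an 18 h arrest at the first larval stage, were labelled L4, and gave RNA from pools of at least 200 animals. Each mutant is 1 strain, so its allele cannot be told apart from other differences of that strain. The study asked which genes respond when the Met/SAM cycle is perturbed while vitamin B12 is present.

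Levels in TPM are scaled to transcript length and to the library total, so they can be set side by side between genes. Sequencing depth is not kept in TPM and is unknown here, so the counting error of a value is unknown too. Between 13752 and 14563 genes per library were at 1 TPM or more. Each mutated gene was at a higher TPM in both libraries of its own strain than in either parent library, for example *mthf-1* at 336 to 420.1 TPM in *mthf-1(ww50)* against 73.0 to 90.4 TPM in the parent, so transcript levels do not check the labels of these point mutants. Markers of stage separated the libraries. The summed TPM of 13 larval cuticle and molting genes was 483 to 4609 in the mutants and 115 to 273 in the parent, all 13 were above both parent libraries in all 8 mutant libraries, and replicate 1 was the higher one in every strain. The summed TPM of 8 adult-onset and yolk genes was 159 to 4580.4 in the mutants and 1532 to 5571 in the parent, that of 10 oocyte genes was 66.8 to 1282 in the mutants and 536 to 1003 in the parent, and that of 8 sperm genes was 332 to 829 in the mutants and 786 to 943 in the parent. The 6 intestine markers summed to 927 to 1422 TPM in the mutants and 1284 to 1693 TPM in the parent, and no marker of these lists was at 0 in any library. The part of stage and tissue make-up in the values of the members was not tested, and in RNA of whole animals fewer cells of a type and less RNA per cell cannot be told apart.

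Of the 51 genes, 39 reached a mean of 1 TPM and were tested: 33 *gst*, 2 *gsto*, 2 *gstk* and both synthesis genes. The family's transcript was held by few genes. The mean lay above 50 TPM for 11 genes, between 5 and 50 TPM for 16 and between 1 and 5 TPM for 12, and the 10 most abundant transferases made up 76.6% to 81.5% of the transferase TPM of a library. The summed TPM of all transferases averaged 1381 ± 58.6 in *metr-1(ww52)*, 1230.1 ± 16.1 in *mthf-1(ww50)*, 1844 ± 269.9 in *mtrr-1(ww56)*, 1711 ± 20.2 in *sams-1(ww51)* and 2049.7 ± 249.9 in the parent (SD, n = 2 each). The sum was lower in the *metr-1(ww52)* and *mthf-1(ww50)* libraries than in any other, and the libraries of *mtrr-1(ww56)* and the parent overlapped.

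**Figure D1:**
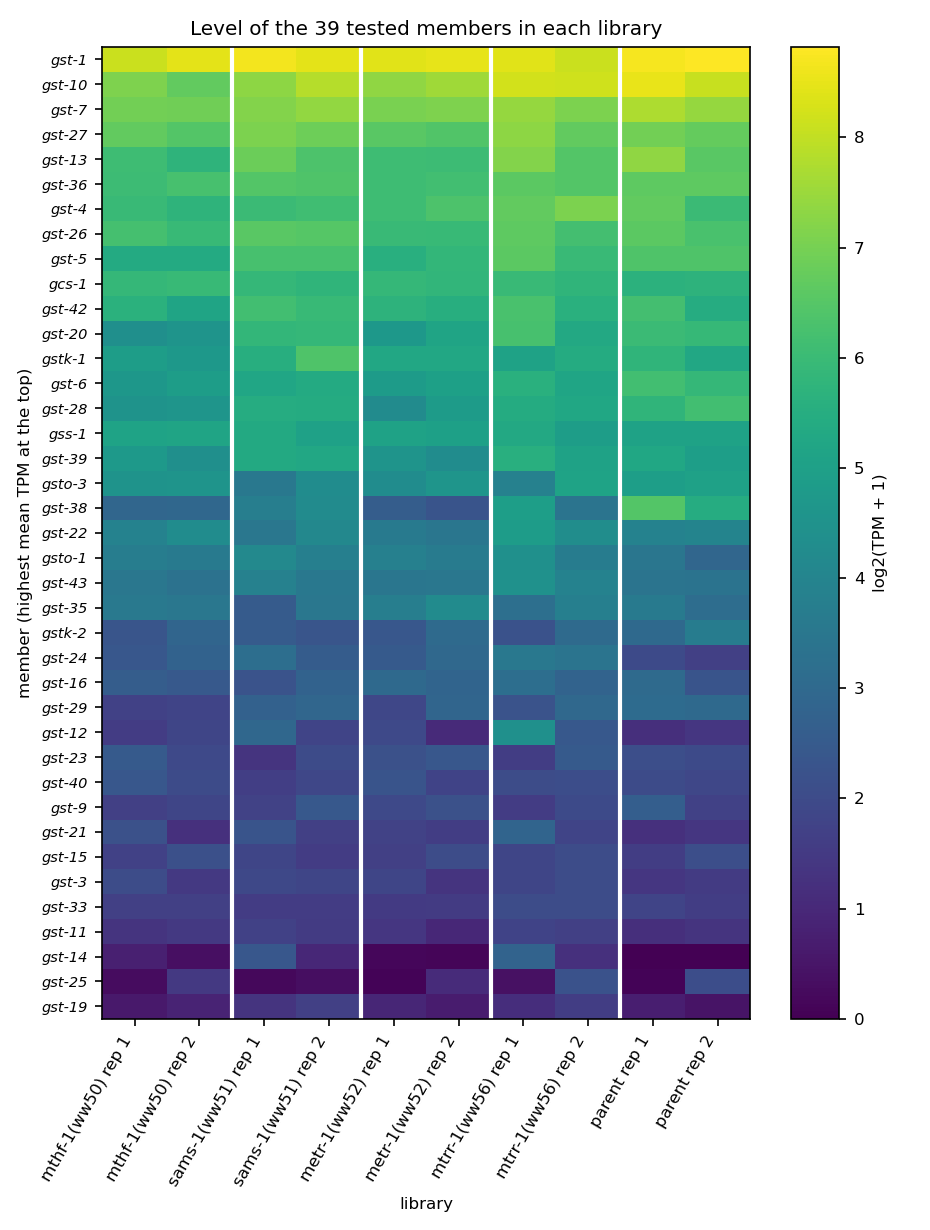
Level of the 39 tested genes in each library. Rows are genes ordered by mean TPM, columns are the 10 libraries (2 replicates of each mutant strain, then the parent), and color gives log2(TPM + 1). The order of the genes by level is much alike in all columns, from *gst-1* at the top to *gst-19* at the bottom, and *gst-38*, *gst-12* and *gst-14* are among the rows where color differs most between strains.

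No tested member passed the threshold in any mutant. In this fit (limma on log2(TPM + 1), 1 mean per strain, Benjamini-Hochberg adjustment over the 14418 genes that reached a mean of 1 TPM) a call required an adjusted p under 0.01 and a fold change over 1.5. With limma, 0 of 39 members were called in *metr-1(ww52)*, where 0.291% of all genes were, 0 in *mthf-1(ww50)* (0.187% of all genes), 0 in *mtrr-1(ww56)* (0.132%) and 0 in *sams-1(ww51)* (0.0763%). For the mean of the 4 mutants against the parent the count was also 0, beside 0.243% of all genes. At these shares of called genes a count of 0 among 39 is near the background. At an adjusted p under 0.05, an alternative cutoff, 2 members were called in *metr-1(ww52)* (*gst-28* and *gst-38*), 2 in *mthf-1(ww50)* (*gst-28* and *gst-6*) and 3 for the mean of the 4 mutants (*gst-6*, *gst-28* and *gst-38*), all lower, beside 1.09%, 0.798% and 1.28% of all genes in either direction. The 4 comparisons use the same 2 parent libraries and are not independent of each other.

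At an unadjusted p under 0.05 members were found on both sides of the parent. In *mthf-1(ww50)*, 13 members were lower and 1 was higher, where 3.2% of all genes were lower and 8.73% higher. The counts in *metr-1(ww52)* were 11 lower and 1 higher, beside 3.34% and 9.12% of all genes. In *sams-1(ww51)*, 6 were lower and 4 higher (2.93% and 15.2% of all genes). In *mtrr-1(ww56)*, 4 were lower and 9 higher (7.13% and 18.8% of all genes). The mean of the 4 mutants gave 10 lower and 3 higher, beside 3.35% and 16.1%. The higher members in *mtrr-1(ww56)* and *sams-1(ww51)* include *gst-14* and *gst-19*, which passed the filter on low values only through these 2 strains. Of these, *gst-14* was listed at 0 in the parent. The 3 higher members for the mean include *gst-19*, so that part of the count is no support for a difference. The median log2 fold change of the 39 members was -0.21 in *metr-1(ww52)*, -0.27 in *mthf-1(ww50)*, 0.11 in *mtrr-1(ww56)* and -0.15 in *sams-1(ww51)*, whereas the median of all genes was 0.09, 0.12, 0.05 and 0.04 in these strains. Median-ratio scaling moved the all-gene medians to 0.00, 0.02, -0.06 and -0.03, and the members' medians to -0.32, -0.38, 0.00 and -0.20. With the filter at 5 TPM the members' medians were -0.49, -0.48, -0.09 and -0.16 (27 members). Without parent replicate 1 they were -0.14, -0.16, 0.17 and 0.05, and without parent replicate 2 -0.32, -0.39, -0.06 and -0.14. The sign in *mtrr-1(ww56)* and *sams-1(ww51)* thus depended on the filter or on 1 parent library. The counts above also depended on which parent library was kept. Without a test, 18 members had both *metr-1(ww52)* libraries below both parent libraries and 8 had both above, where 15.5% and 32.7% of all genes did. For *mthf-1(ww50)* the counts were 18 below and 6 above (13.8% and 30.3% of all genes), for *mtrr-1(ww56)* 6 below and 13 above (22.1% and 34.6%), and for *sams-1(ww51)* 13 below and 11 above (18.8% and 32.2%). The members above include *gst-14* in each mutant, and *gst-19* in *mtrr-1(ww56)* and *sams-1(ww51)*.

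Both synthesis genes stayed in a narrow range of levels. *gcs-1* was at 57.2 and 54.4 TPM in *metr-1(ww52)*, 57.3 and 60.05 in *mthf-1(ww50)*, 62.1 and 54.1 in *mtrr-1(ww56)*, 58.2 and 54.1 in *sams-1(ww51)*, and 49.5 and 51.6 TPM in the parent. All 8 mutant libraries were thus above both parent libraries, but by a small margin, with a log2 fold change of 0.17 for the mean of the mutants (95% interval -0.03 to 0.38, limma adjusted p = 0.331). After median-ratio scaling, an alternative added after seeing the data, *gcs-1* no longer separated in this way, and its log2 fold change for the mean was 0.07. *gss-1* was at 32.9 and 31.4 TPM in *metr-1(ww52)*, 33.4 and 34.6 in *mthf-1(ww50)*, 38.7 and 29.3 in *mtrr-1(ww56)*, 40.3 and 31.96 in *sams-1(ww51)*, and 33.1 and 32.7 TPM in the parent, so the parent libraries lay within the range of the mutants. Its log2 fold change for the mean of the mutants was 0.04 with a 95% interval of -0.27 to 0.35 (limma adjusted p = 0.882). In each single mutant the interval of both genes included 0, with limits for *gss-1* between -0.42 in *metr-1(ww52)* and 0.51 in *sams-1(ww51)*. Both genes lie on the minus strand of chromosome II of WBcel235, *gcs-1* at 9035562 to 9038301 and *gss-1* at 9414563 to 9416431.

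The most abundant transferase was *gst-1*, whose product belongs to the pi class (plus strand, chromosome III, 9059331 to 9060181), with 21.75% of the mean transferase TPM. *gst-1* was at 345 and 356 TPM in *metr-1(ww52)*, 278 and 347 in *mthf-1(ww50)*, 343 and 275 in *mtrr-1(ww56)*, 407 and 354 in *sams-1(ww51)*, and 418 and 451 TPM in the parent. Both parent libraries were the highest of the 10, and the log2 fold change was -0.31 in *metr-1(ww52)*, -0.48 in *mthf-1(ww50)*, -0.50 in *mtrr-1(ww56)* and -0.19 in *sams-1(ww51)*, with a limma adjusted p of 0.177 for their mean (-0.37, SE 0.13). The next most abundant were *gst-10* and *gst-7*, followed by *gst-27*, *gst-13*, *gst-36*, *gst-4*, *gst-26*, *gst-5* and *gst-42*, down to a mean of 55.01 TPM.

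Among these, *gst-4*, the usual reporter gene for SKN-1 activity, had fold changes of both signs. *gst-4* was at 67.4 and 80.4 TPM in *metr-1(ww52)*, 62.4 and 51.9 in *mthf-1(ww50)*, 102 and 135 in *mtrr-1(ww56)*, 64.3 and 68.4 in *sams-1(ww51)*, and 104 and 64.04 TPM in the parent. The 2 parent libraries were far apart, both *mthf-1(ww50)* libraries lay below them, and only the *mtrr-1(ww56)* library at 135 TPM lay above both. The log2 fold change was -0.15 in *metr-1(ww52)*, -0.51 in *mthf-1(ww50)*, 0.52 in *mtrr-1(ww56)* and -0.30 in *sams-1(ww51)*, with limma adjusted p-values of 0.23 to 0.864. Without parent replicate 1 it was 0.20 in *metr-1(ww52)* and 0.05 in *sams-1(ww51)*. The transcript of *gst-4* shares 65 bases of exon with its neighbor *dhs-12* on the same strand, so reads there could be assigned to either gene. *gst-10* was at 162 and 187 TPM in *metr-1(ww52)*, 136 and 104 in *mthf-1(ww50)*, 299 and 287 in *mtrr-1(ww56)*, 157 and 226 in *sams-1(ww51)*, and 369 and 270.3 TPM in the parent. The product of *gst-10* acts on 4-hydroxynonenal, a product of lipid peroxidation. All libraries of *metr-1(ww52)*, *mthf-1(ww50)* and *sams-1(ww51)* were below both parent libraries, while those of *mtrr-1(ww56)* lay inside the parent's range. Its log2 fold change was -1.40 (SE 0.23, limma adjusted p = 0.0595) in *mthf-1(ww50)*, -0.85 in *metr-1(ww52)*, -0.11 in *mtrr-1(ww56)* and -0.74 in *sams-1(ww51)*.

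For 6 of the other abundant members (*gst-7*, *gst-5*, *gst-13*, *gst-36*, *gst-26* and *gst-27*) every *metr-1(ww52)* and *mthf-1(ww50)* library was below both parent libraries. *gst-5* was at 46.5 and 56.4 TPM in *metr-1(ww52)*, 40.6 and 41.4 in *mthf-1(ww50)*, 95.2 and 62.4 in *mtrr-1(ww56)*, 74.5 and 75.4 in *sams-1(ww51)*, and 83.8 and 83.5 TPM in the parent. The log2 fold change of *gst-5* was -1.01 in *mthf-1(ww50)* (limma adjusted p = 0.0954) and -0.70 in *metr-1(ww52)* (adjusted p = 0.225), against -0.12 in *mtrr-1(ww56)* and -0.16 in *sams-1(ww51)*. *gst-7* was at 129.7 and 137 TPM in *metr-1(ww52)*, 123 and 118 in *mthf-1(ww50)*, 171 and 134 in *mtrr-1(ww56)*, 144 and 167 in *sams-1(ww51)*, and 211 and 169.7 TPM in the parent, and its adjusted p for the mean of the mutants was 0.136 at a log2 fold change of -0.44. *gst-36* stood at 67.1 and 70.6 TPM in *metr-1(ww52)*, 65.6 and 74.4 in *mthf-1(ww50)*, 95.1 and 87.7 in *mtrr-1(ww56)*, 86.5 and 82.8 in *sams-1(ww51)*, and 97.5 and 97.1 TPM in the parent. All 8 mutant libraries of *gst-36* were below the parent, with a log2 fold change of -0.31 for their mean (limma adjusted p = 0.117), and 93 bases of its exons overlap *scav-5* on the opposite strand. *gst-13* was at 67.4 and 65.01 TPM in *metr-1(ww52)*, 67.5 and 52.5 in *mthf-1(ww50)*, 145 and 87.9 in *mtrr-1(ww56)*, 112 and 81.5 in *sams-1(ww51)*, and 164 and 92.6 TPM in the parent, so the parent replicates were further apart in TPM than the replicates of any mutant.

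For *gst-26*, *gst-27* and *gst-42*, as for *gst-13*, the *mtrr-1(ww56)* and *sams-1(ww51)* libraries overlapped the parent. *gst-26* was at 61.8 and 60.4 TPM in *metr-1(ww52)*, 74.2 and 60.9 in *mthf-1(ww50)*, 97.4 and 72.4 in *mtrr-1(ww56)*, 94.04 and 88.9 in *sams-1(ww51)*, and 95.3 and 77.5 TPM in the parent. The log2 fold change of *gst-26* was -0.35 in *mthf-1(ww50)* and -0.49 in *metr-1(ww52)*. *gst-27* was at 92.8 and 84.8 TPM in *metr-1(ww52)*, 102 and 86.4 in *mthf-1(ww50)*, 159.6 and 104 in *mtrr-1(ww56)*, 136 and 117 in *sams-1(ww51)*, and 122 and 105 TPM in the parent. For *gst-27* the log2 fold change was -0.27 in *mthf-1(ww50)* and -0.35 in *metr-1(ww52)*, whereas *mtrr-1(ww56)* gave 0.19 and *sams-1(ww51)* gave 0.15, with limma adjusted p-values of 0.556 or more. *gst-42* encodes a zeta-class enzyme of tyrosine breakdown, maleylacetoacetate isomerase. *gst-42* was at 51.3 and 44.7 TPM in *metr-1(ww52)*, 49.03 and 34.9 in *mthf-1(ww50)*, 76.7 and 47.4 in *mtrr-1(ww56)*, 70.2 and 60.97 in *sams-1(ww51)*, and 72.2 and 42.9 TPM in the parent. In every strain replicate 1 was the higher library of *gst-42*, and no log2 fold change passed (limma adjusted p of 0.634 to 0.841).

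Counted over all 39 tested members, 6 had all 8 mutant libraries below both parent libraries, which 3.52% of all genes did: *gst-1*, *gst-36*, *gst-6*, *gst-28*, *gst-38* and *gst-29*. The opposite order was found for 4 members (*gcs-1*, *gsto-1*, *gst-24* and *gst-14*), where 12.9% of all genes had it. Of these, *gst-14* was listed at 0 in the parent, so any value above 0 placed a mutant library above it. It was tested only because *mtrr-1(ww56)* and *sams-1(ww51)* raised its mean. These counts are descriptions without a test, and they depend on the scale. After median-ratio scaling, 8 members were below, the same 6 with *gst-7* and *gstk-2*, beside 8.43% of all genes, and 2 (*gst-24* and *gst-14*) were above, beside 7.81%.

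*gst-38*, *gst-28* and *gst-6* had the lowest adjusted p-values of all members for the mean of the 4 mutants. *gst-38* (minus strand, chromosome V, 15915162 to 15916070) had the lowest log2 fold change of all members in each of the 4 mutants. *gst-38* was at 5.05 and 3.9 TPM in *metr-1(ww52)*, 6.48 and 6.64 in *mthf-1(ww50)*, 29.9 and 9.52 in *mtrr-1(ww56)*, 12.7 and 18.2 in *sams-1(ww51)*, and 86.8 and 42.6 TPM in the parent. Every mutant library was below the lower parent library, and the parent's mean was 14.5 times that of *metr-1(ww52)*, 9.86 times that of *mthf-1(ww50)*, 3.28 times that of *mtrr-1(ww56)* and 4.18 times that of *sams-1(ww51)*. The parent replicates themselves differed (mean 64.7 ± 31.2 TPM, SD, n = 2). The log2 fold change was -3.51 (SE 0.53, limma adjusted p = 0.0338) in *metr-1(ww52)*, -3.03 (adjusted p = 0.0671) in *mthf-1(ww50)*, -1.78 (adjusted p = 0.114) in *mtrr-1(ww56)* and -1.93 (adjusted p = 0.138) in *sams-1(ww51)*. Without replicate 1 of *mtrr-1(ww56)* the value of *gst-38* there was -2.56, and without replicate 2 it was -0.999.

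*gst-28* was at 18.3 and 27.4 TPM in *metr-1(ww52)*, 22.1 and 23.4 in *mthf-1(ww50)*, 42.3 and 36.95 in *mtrr-1(ww56)*, 42.6 and 42.1 in *sams-1(ww51)*, and 53.8 and 70.4 TPM in the parent. The *metr-1(ww52)* and *mthf-1(ww50)* libraries formed the low end, those of *mtrr-1(ww56)* and *sams-1(ww51)* the middle and the parent the high end, without overlap between the 3 levels. In *gst-28* the log2 fold change was -1.42 (SE 0.21, limma adjusted p = 0.0321) in *metr-1(ww52)*, -1.40 (adjusted p = 0.0424) in *mthf-1(ww50)*, -0.63 (adjusted p = 0.137) in *mtrr-1(ww56)* and -0.53 (adjusted p = 0.248) in *sams-1(ww51)*. *gst-6* was at 27.9 and 31.3 TPM in *metr-1(ww52)*, 24.6 and 29.1 in *mthf-1(ww50)*, 47.3 and 35.2 in *mtrr-1(ww56)*, 36.7 and 40.9 in *sams-1(ww51)*, and 70.2 and 57.8 TPM in the parent. *gst-6* was likewise lowest in *metr-1(ww52)* and *mthf-1(ww50)*, with log2 fold changes of -1.08 (SE 0.18, limma adjusted p = 0.051) and -1.22 (adjusted p = 0.0424), against -0.70 (adjusted p = 0.126) in *sams-1(ww51)* and -0.63 (adjusted p = 0.111) in *mtrr-1(ww56)*.

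For the mean of the 4 mutants against the parent, the log2 fold change was -2.56 for *gst-38* (95% interval -3.55 to -1.58, limma adjusted p = 0.0456), -0.99 for *gst-28* (-1.38 to -0.60, adjusted p = 0.0456) and -0.91 for *gst-6* (-1.25 to -0.57, adjusted p = 0.0439). None of the 3 reached the adjusted p of 0.01 needed for a call. The member *gst-29* was low in level. *gst-29* was at 2.66 and 6.3 TPM in *metr-1(ww52)*, 2.27 and 2.52 in *mthf-1(ww50)*, 3.8 and 6.97 in *mtrr-1(ww56)*, 5.66 and 6.5 in *sams-1(ww51)*, and 7.44 and 7.09 TPM in the parent, with replicate 2 of *mtrr-1(ww56)* just under the parent and a limma adjusted p of 0.263 for the mean. *gst-20*, chosen after its values were seen, had the pattern of *gst-5*: *gst-20* was at 25.1 and 34.3 TPM in *metr-1(ww52)*, 20.2 and 22.9 in *mthf-1(ww50)*, 75.5 and 39.1 in *mtrr-1(ww56)*, 56.8 and 58.4 in *sams-1(ww51)*, and 63.5 and 58.8 TPM in the parent. Its log2 fold change was -1.46 (limma adjusted p = 0.103) in *mthf-1(ww50)* and -1.03 (adjusted p = 0.229) in *metr-1(ww52)*, against -0.16 in *mtrr-1(ww56)* and -0.08 in *sams-1(ww51)*.

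**Figure D2:**
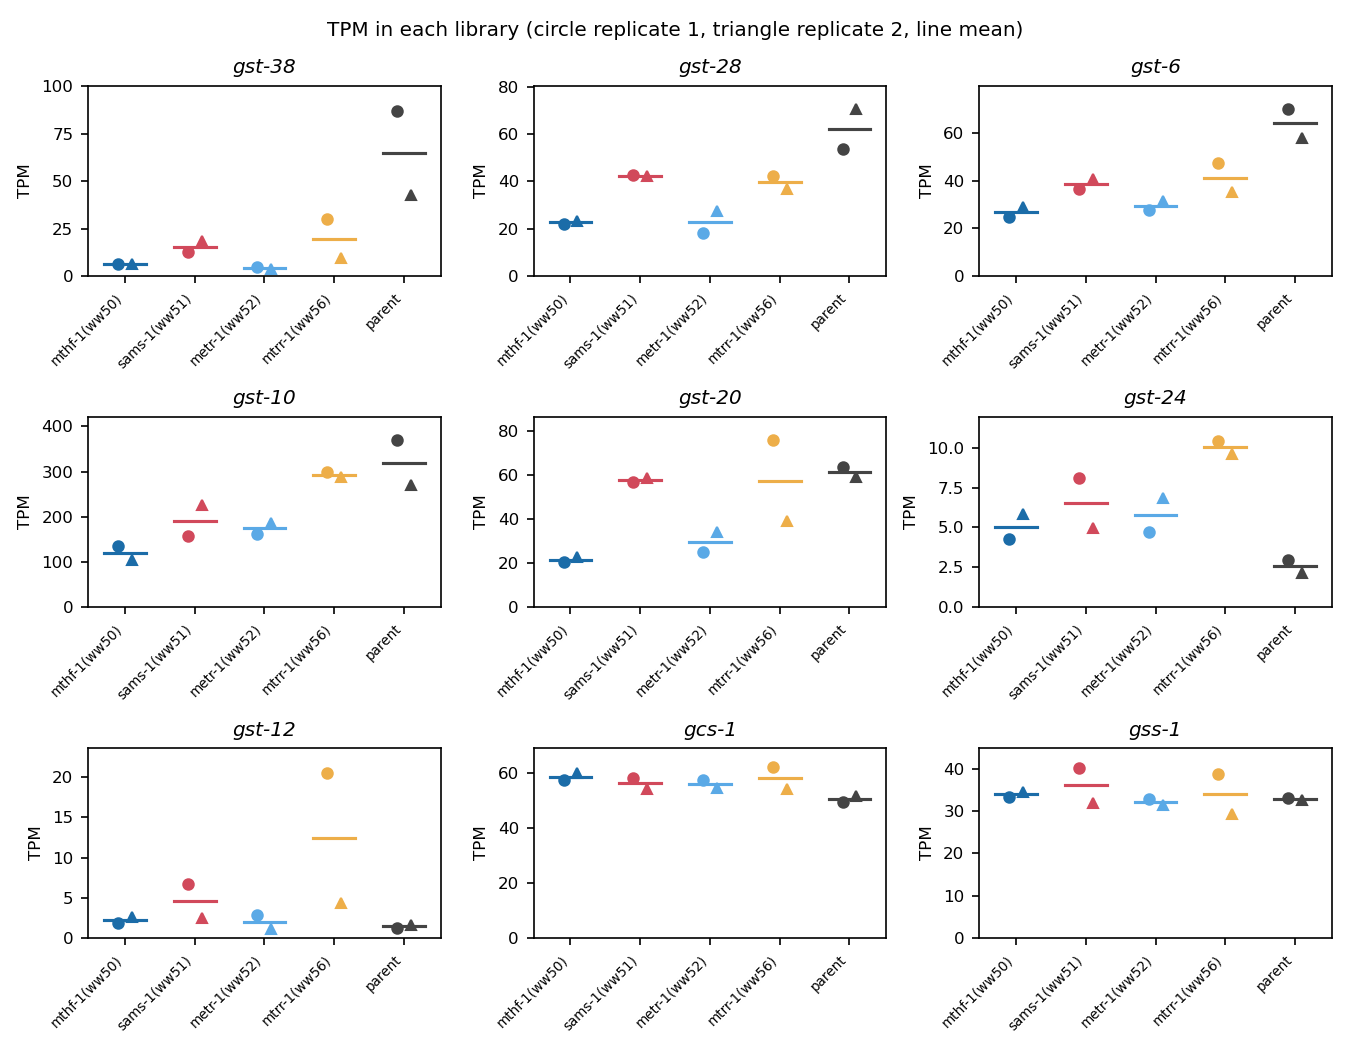
TPM of 9 members in each library (circle, replicate 1, triangle, replicate 2, line, mean of the 2), with the 4 mutants from the left and the parent at the right, each axis starting at 0. For *gst-38*, *gst-28* and *gst-6* every mutant point lies below both parent points, for *gst-24* every mutant point lies above them, and *gcs-1* and *gss-1* stay close to one level in all strains.

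The members on the high side were mostly of low level. *gst-24* was at 4.71 and 6.83 TPM in *metr-1(ww52)*, 4.25 and 5.86 in *mthf-1(ww50)*, 10.4 and 9.63 in *mtrr-1(ww56)*, 8.12 and 4.97 in *sams-1(ww51)*, and 2.98 and 2.17 TPM in the parent. The mean in *mtrr-1(ww56)* was 3.90 times that of the parent, the lowest ratio was 1.96 in *mthf-1(ww50)*, and no mutant library was as low as those of the parent. On the log2 scale *gst-24* differed by 1.63 (SE 0.27, limma adjusted p = 0.0525) in *mtrr-1(ww56)*, 1.05 (adjusted p = 0.124) in *sams-1(ww51)*, 0.91 (adjusted p = 0.25) in *metr-1(ww52)*, 0.76 (adjusted p = 0.348) in *mthf-1(ww50)* and 1.09 (adjusted p = 0.0628) for their mean.

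*gst-14* was at 0.12 and 0.08 TPM in *metr-1(ww52)*, 0.71 and 0.28 in *mthf-1(ww50)*, 5.99 and 1.35 in *mtrr-1(ww56)*, 4.24 and 0.98 in *sams-1(ww51)*, and 0 and 0 TPM in the parent. *gst-14* was therefore listed at 0 in the parent, passed the filter on low values only through *mtrr-1(ww56)* and *sams-1(ww51)*, and is given without a fold. *gst-12*, chosen after its values were seen, is its neighbor on chromosome II and was highest in the same 2 libraries. *gst-12* was at 2.83 and 1.08 TPM in *metr-1(ww52)*, 1.94 and 2.57 in *mthf-1(ww50)*, 20.5 and 4.39 in *mtrr-1(ww56)*, 6.72 and 2.48 in *sams-1(ww51)*, and 1.29 and 1.6 TPM in the parent. Replicate 1 of *mtrr-1(ww56)* and replicate 1 of *sams-1(ww51)*, where *gst-12* and *gst-14* were highest, were also the libraries with the highest summed TPM of the larval cuticle and molting markers (3935 and 4609), and the part of that stage difference was not tested. For *gst-12* the log2 fold change in *mtrr-1(ww56)* was 2.14 with an SE of 0.68 (limma adjusted p = 0.126), and it was 1.14 without replicate 1 of that strain and 3.14 without replicate 2.

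The omega class, known for thiol transferase and dehydroascorbate reductase activity, had members on both sides of the parent. *gsto-1* was at 13.3 and 11.6 TPM in *metr-1(ww52)*, 12.4 and 11.1 in *mthf-1(ww50)*, 20.5 and 12.1 in *mtrr-1(ww56)*, 16.7 and 12.9 in *sams-1(ww51)*, and 10.1 and 6.45 TPM in the parent. Every mutant library of *gsto-1* was above both parent libraries, with a log2 fold change of 0.68 for the mean (95% interval 0.15 to 1.22, limma adjusted p = 0.171). Median-ratio scaling removed this separation, and 52 bases of the exons of *gsto-1* overlap *kle-2* on the opposite strand. *gsto-3* was at 18.7 and 23.4 TPM in *metr-1(ww52)*, 22.1 and 22.4 in *mthf-1(ww50)*, 13.5 and 33.9 in *mtrr-1(ww56)*, 10.5 and 18.5 in *sams-1(ww51)*, and 29.4 and 32.5 TPM in the parent. All libraries of *metr-1(ww52)*, *mthf-1(ww50)* and *sams-1(ww51)* were below both parent libraries for *gsto-3*, with a log2 fold change of -1.09 in *sams-1(ww51)* (limma adjusted p = 0.232), and the *mtrr-1(ww56)* replicates lay on either side of the parent. *gsto-2* was not tested, with 0.33 to 1.14 TPM in the mutants and 0.24 and 0.07 TPM in the parent.

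Of the kappa class, whose members work in mitochondria and peroxisomes, *gstk-1* was the more abundant. *gstk-1* was at 38.03 and 37.7 TPM in *metr-1(ww52)*, 29.2 and 24.8 in *mthf-1(ww50)*, 32.5 and 42.1 in *mtrr-1(ww56)*, 45.2 and 83.7 in *sams-1(ww51)*, and 53.6 and 38.1 TPM in the parent. A single *sams-1(ww51)* library stood above the rest, and without it the log2 fold change of 0.44 in *sams-1(ww51)* was -0.0014. *gstk-2* was at 4.2 and 7.26 TPM in *metr-1(ww52)*, 4.05 and 6.38 in *mthf-1(ww50)*, 3.71 and 7.25 in *mtrr-1(ww56)*, 4.75 and 4.06 in *sams-1(ww51)*, and 7.16 and 12.04 TPM in the parent. The median over the 8 mutant libraries of *gstk-2* was 4.47 TPM, against 7.16 and 12.04 TPM in the parent, with limma adjusted p-values of 0.262 to 0.538 in single mutants. *gst-43*, the other zeta-class gene, was above both parent libraries in both libraries of *mtrr-1(ww56)*, *sams-1(ww51)* and, by a small margin, *metr-1(ww52)*. The *mthf-1(ww50)* libraries of *gst-43* lay on either side of the parent. *gst-43* was at 9.94 and 10.2 TPM in *metr-1(ww52)*, 10.4 and 9.14 in *mthf-1(ww50)*, 20.8 and 14.2 in *mtrr-1(ww56)*, 13.8 and 10.6 in *sams-1(ww51)*, and 9.62 and 9.33 TPM in the parent. Its log2 fold change was 0.80 in *mtrr-1(ww56)* (SE 0.20, limma adjusted p = 0.0916) and at most 0.32 in the other mutants.

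**Figure D3:**
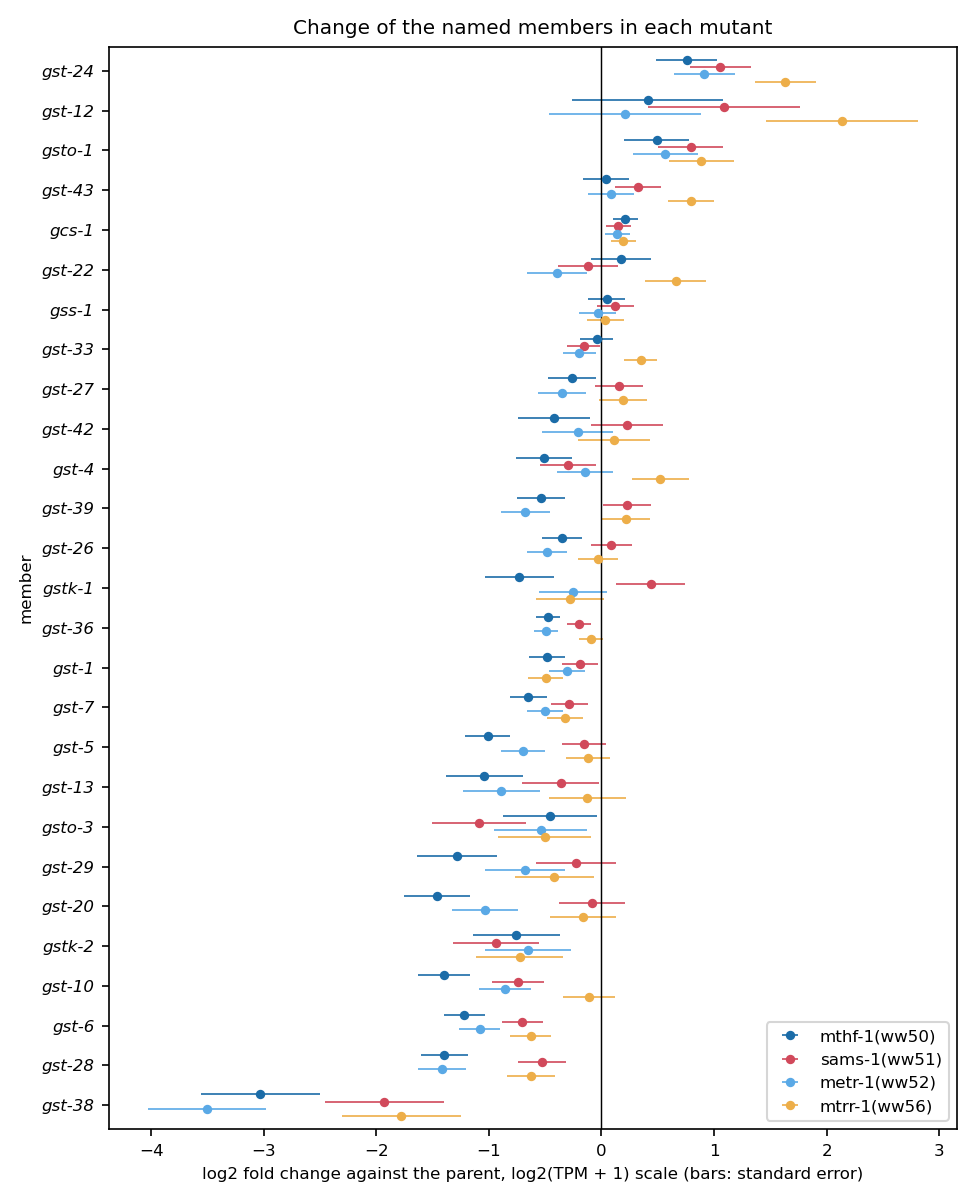
Log2 fold change of 27 members in each mutant against the parent on the log2(TPM + 1) scale, ordered by the mean over the 4 mutants, with standard errors from the limma fit as bars. Points for *metr-1(ww52)* and *mthf-1(ww50)* lie to the left of those for *mtrr-1(ww56)* in most of the lower rows, and no point passed an adjusted p of 0.01.

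To test differences between the mutants themselves, they were compared pairwise in the same fit. No member was called in any of the 6 comparisons by limma. The share of all genes called was 0.0139% for *mthf-1(ww50)* against *metr-1(ww52)*, 0.16% for *mtrr-1(ww56)* against *metr-1(ww52)*, 0.0277% for *mtrr-1(ww56)* against *mthf-1(ww50)*, 0.00694% each for *sams-1(ww51)* against *mthf-1(ww50)* and against *metr-1(ww52)*, and 0.0139% for *sams-1(ww51)* against *mtrr-1(ww56)*. At an unadjusted p under 0.05, *mtrr-1(ww56)* had 18 members higher and 0 lower than *metr-1(ww52)*, where 9.97% of all genes were higher and 13.3% lower. Against *mthf-1(ww50)*, *mtrr-1(ww56)* had 17 members higher and 0 lower, beside 8.45% and 14.2% of all genes. For *sams-1(ww51)* the counts were 11 higher and 0 lower against *mthf-1(ww50)* (6.62% and 5.76% of all genes), 9 higher and 1 lower against *metr-1(ww52)* (7.48% and 4.9%), and 1 higher and 4 lower against *mtrr-1(ww56)* (2.3% and 3.29%). Each count of higher members against *metr-1(ww52)* or *mthf-1(ww50)* includes *gst-14*, *gst-19* or both. These genes passed the filter on low values only through *mtrr-1(ww56)* and *sams-1(ww51)*, so that part of the counts is no support for a difference. Between *mthf-1(ww50)* and *metr-1(ww52)* no member was higher and none lower at that level (1.07% and 1.35% of all genes). The members' median log2 fold change of *mtrr-1(ww56)* was 0.45 against *metr-1(ww52)* and against *mthf-1(ww50)*. Without its replicate 1 these medians were 0.35 and 0.38, and without its replicate 2 they were 0.55 and 0.53. The counts also depended on which library was kept. Larval cuticle and molting markers summed to 3935 TPM in its replicate 1 and 797 in replicate 2, and the part of this difference was not tested.

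The lowest adjusted p among these pairwise comparisons was for *gst-10*, higher in *mtrr-1(ww56)* than in *mthf-1(ww50)* by 1.29 on the log2 scale (SE 0.23, limma adjusted p = 0.0946). The same comparison gave 1.30 for *gst-20* (adjusted p = 0.116), 1.04 for *gst-4* (adjusted p = 0.119) and 0.90 for *gst-5* (adjusted p = 0.112). Set against *metr-1(ww52)*, *mtrr-1(ww56)* was higher by 0.89 for *gst-39* (adjusted p = 0.113), 1.05 for *gst-22* (adjusted p = 0.118) and 0.55 for *gst-33* (adjusted p = 0.125). *gst-39*, *gst-22* and *gst-33*, chosen after their values were seen, were the members with both libraries of 1 mutant above the parent's and both of another below. *gst-22* was at 11.3 and 10.1 TPM in *metr-1(ww52)*, 14.2 and 18.7 in *mthf-1(ww50)*, 28.4 and 18.9 in *mtrr-1(ww56)*, 10.4 and 16.4 in *sams-1(ww51)*, and 14.01 and 14.7 TPM in the parent. *gst-39* was at 22.5 and 18.5 TPM in *metr-1(ww52)*, 25.5 and 19.9 in *mthf-1(ww50)*, 45.9 and 32.8 in *mtrr-1(ww56)*, 39.8 and 38.3 in *sams-1(ww51)*, and 37.4 and 29.4 TPM in the parent. *gst-33* was at 1.82 and 1.91 TPM in *metr-1(ww52)*, 2.2 and 2.18 in *mthf-1(ww50)*, 3.19 and 3.17 in *mtrr-1(ww56)*, 1.93 and 1.96 in *sams-1(ww51)*, and 2.54 and 2.04 TPM in the parent. In *gst-22* and *gst-33* the libraries above the parent were those of *mtrr-1(ww56)*, and in *gst-39* they were those of *sams-1(ww51)*.

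By position, 28 of the 51 genes lie on chromosome II (WBcel235), 9 on V, 5 on IV, 4 on III, 3 on X and 2 on I. Linking members that lie within 20 kb of each other gave 4 groups with 25 members, and 26 members stood alone. A group of 9 genes at 13608154 to 13630887 on chromosome II spans 22.7 kb, all on the minus strand, in the order *gst-20*, *gst-24*, *gst-15*, *gst-14*, *gst-12*, *gst-16*, *gst-19*, *gst-17* and *gst-18*, and another group of 9 at 15163817 to 15185389 spans 21.6 kb, also on the minus strand, from *gst-26* over *gst-27*, *gst-28*, *gst-29*, *gst-39*, *gst-31*, *gst-32* and *gst-34* to *gst-35*. The group with *gst-20* holds both high and low members. The log2 fold changes of its 7 tested genes in *mtrr-1(ww56)* reached from -0.16 (*gst-20*) to 2.14 (*gst-12*), and in *mthf-1(ww50)* from -1.46 (*gst-20*) to 0.76 (*gst-24*). Of the 6 tested genes in the group with *gst-26*, 5 were below 0 in each of *metr-1(ww52)* and *mthf-1(ww50)* and 3 in each of *mtrr-1(ww56)* and *sams-1(ww51)*, with a lowest value of -1.42 for *gst-28* in *metr-1(ww52)*. *gst-6*, *gst-7*, *gst-8* and *gst-9* form a group of 13.7 kb on the plus strand of chromosome II (4879891 to 4893573), where the 3 tested genes were below 0 in every mutant, down to -1.22 for *gst-6* in *mthf-1(ww50)*. Beside these counts, the share of all genes below 0 was 36.8% in *metr-1(ww52)*, 33.6% in *mthf-1(ww50)*, 46.1% in *mtrr-1(ww56)* and 45.2% in *sams-1(ww51)*. The smallest group, of *gst-3*, *gst-2* and *gst-4*, spans 3.7 kb on chromosome IV (10139380 to 10143099). Neighbors in such groups are often close copies, and reads shared between copies can be divided between them by the expectation step of the quantification, so single values of low members are uncertain.

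**Figure D4:**
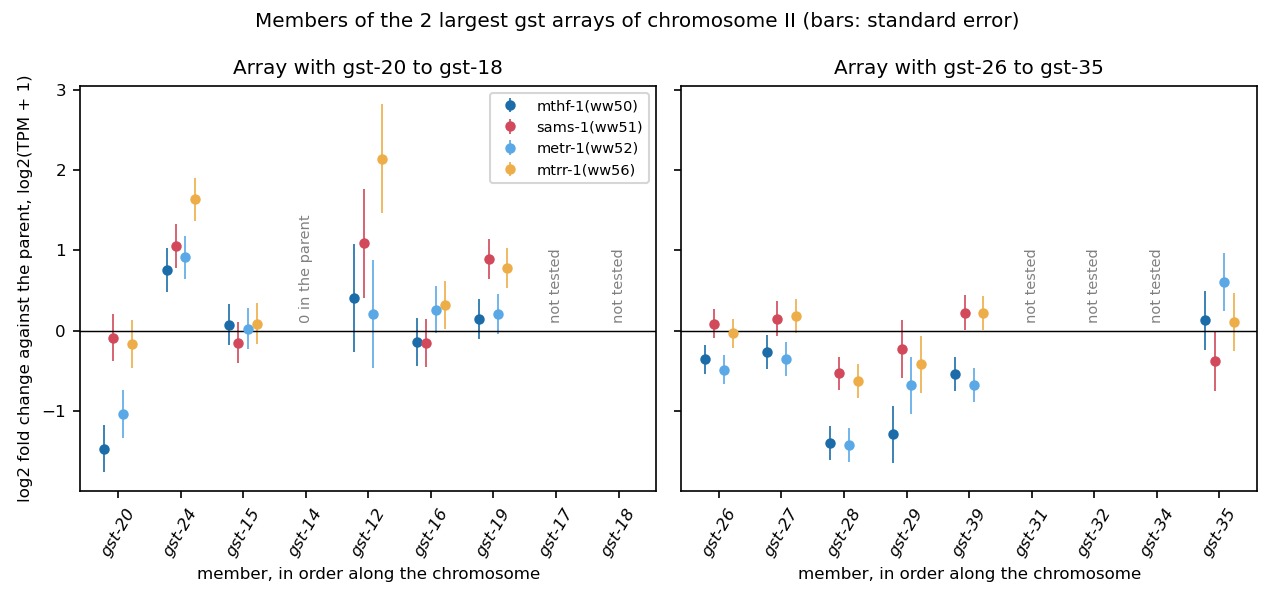
Log2 fold change against the parent in each mutant for the 2 *gst* groups of 9 genes on chromosome II, in their order along the chromosome, with standard errors from the limma fit as bars. In the group from *gst-20* to *gst-18*, *gst-20* lies below 0 and *gst-24* above 0 in all mutants, in the group from *gst-26* to *gst-35*, *gst-28* and *gst-29* lie below 0 in all mutants, *gst-14* is left out because it was listed at 0 in the parent, and 5 genes were too low to be tested.

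The remaining tested members were *gst-35*, *gst-16*, *gst-23*, *gst-40*, *gst-9*, *gst-21*, *gst-15*, *gst-3*, *gst-11*, *gst-25* and *gst-19*, with means of 10.7 TPM (*gst-35*) down to 1.08 TPM (*gst-19*). None of them separated the mutants from the parent. For *gst-25* replicate 2 was higher than replicate 1 in every strain, with 0.31 and 3.63 TPM in *mtrr-1(ww56)* against 0.07 and 3.27 TPM in the parent. *gst-19* passed the filter on low values only through *mtrr-1(ww56)* and *sams-1(ww51)*, where its libraries were above both of the parent. The 12 members that were not tested reached at most 1.29 TPM (*gst-44*), and 8 of them were listed at 0 in at least 1 library. *gst-41* was among these, with values above 0 in all 8 mutant libraries, up to 1.04 TPM, and listed at 0 in both parent libraries. *gst-17* and *gst-18* share 351 bases of exon on 1 strand and never passed 0.16 TPM.

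Genes around glutathione were counted in the same fit, from lists of other pathway members. Of the 14 tested genes of glutathione recycling and use (*gsr-1*, the *gpx* peroxidases, glutaredoxins and *glod-4*) 0 were called for the mean of the 4 mutants (1, *gpx-7*, was higher at an unadjusted p under 0.05), where 0.243% of all genes were called, with a median log2 fold change of 0.01 beside 0.07 for all genes. The counts were also 0 of 10 for superoxide and peroxide enzymes (median 0.16), 0 of 6 for regulators of SKN-1 (-0.01), 0 of 7 for other SKN-1 target genes (-0.15), 0 of 3 for relatives with the transferase fold (0.02), 0 of 4 for the tyrosine breakdown pathway of the zeta class (0.04) and 0 of 8 for cysteine supply (0.01). For the mean, at an unadjusted p under 0.05, there were 4 higher superoxide and peroxide genes, 1 higher regulator, 1 higher and 2 lower SKN-1 targets, 1 higher relative, 0 tyrosine genes, and 2 higher and 1 lower cysteine supply genes, where 16.1% of all genes were higher and 3.35% lower. In no single mutant was a gene of these lists called by limma. At an unadjusted p under 0.05, tyrosine genes were 2 lower in *metr-1(ww52)* (3.34% of all genes) and 1 lower in *sams-1(ww51)* (2.93%). In *mthf-1(ww50)* they were 1 higher and 2 lower (8.73% and 3.2% of all genes), and in *mtrr-1(ww56)* 0. *cbs-1*, a cystathionine beta-synthase that draws homocysteine towards cysteine, was the list gene nearest to a call. *cbs-1* was at 5.24 and 6.5 TPM in *metr-1(ww52)*, 4.34 and 5.61 in *mthf-1(ww50)*, 5.94 and 6.49 in *mtrr-1(ww56)*, 6.62 and 7.53 in *sams-1(ww51)*, and 25.8 and 16.1 TPM in the parent. All mutant libraries of *cbs-1* were below the parent's, with a log2 fold change of -1.62 for the mean (limma adjusted p = 0.015), and it was called for the mean, as lower, when the replicate number was a block in the fit, where 3.19% of all genes were.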

How the data were processed

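RNA of whole animals was measured in 10 libraries, 2 for each of 5 strains, grouped by the genotype labels. The authors aligned paired-end reads to WormBase WS271 with bowtie2 and passed them to RSEM, whose TPM they deposited, rounded to 2 decimals. Each column sums to 1000000 within rounding, so depth is lost. DESeq2 is in the submitters' processing notes and was not used here. 0 columns were left unassigned. Symbols were found for 44018 of 46903 genes. Positions, strands and exon overlaps are from the WBcel235 annotation, not compared with WS271 base by base. No strand setting is given in the sources used here, so overlapping genes cannot be separated.

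Log2(TPM + 1) was fitted with limma 3.58.1 in R 4.3.3 for 14418 genes (mean of 1 TPM or more), with 1 mean per strain, a trend of variance with level, and p-values adjusted by Benjamini and Hochberg's method over these genes. Fold changes on this scale understate those of low genes, and p-values measure the spread between the 2 samples of a strain, pooled over strains. Libraries of the same replicate number deviated together (r across genes of 0.166 to 0.736 over 10 pairs of strains), so the number was tried as a block. The main fit ignores this pairing, and all p-values and intervals given are from it unless the block is named. Other alternatives were the pseudocount, filter, scaling, trend, pairs of strains, p cutoff and leaving out each library. The fit was tested on simulated data with 200 changed genes. For *mthf-1(ww50)* against the parent it called 14.3% of those changed by 1 on the log2 scale and 55.9% of those changed by 2. For the mean of the 4 mutants these shares were 32.7% and 74.5%. In the simulation the noise was independent between libraries, and a changed gene moved alike in all 4 mutants. In the data, libraries of the same replicate number deviated together, so the shares hold only for the simulated setting. A count of 0 called members therefore does not show that the members were unchanged. Named members were the synthesis, omega, kappa and zeta genes, *gst-4*, *gst-10*, the 10 most abundant, any called, and any with all mutant libraries on 1 side of the parent. Members, lists and tests were chosen with earlier results of these data known.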

Additional observations from a re-analysis of the deposited data

How the results depend on the processing

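The count of 0 members called held in each comparison with the parent and between mutants with a pseudocount of 0.1, without the filter or with it at 5 TPM, after median-ratio scaling, without the trend, with each pair of strains fitted alone, with the replicate block and without any 1 library (range 0 to 0). A strain left with 1 sample is assumed to vary like the others. An adjusted p cutoff of 0.05 gave 2 members in *metr-1(ww52)*, 2 in *mthf-1(ww50)* and 3 for the mean. The replicate block changed no member's call, but whole-table calls with and without it were 75 and 42 in *metr-1(ww52)*, 44 and 27 in *mthf-1(ww50)*, 602 and 19 in *mtrr-1(ww56)*, 387 and 11 in *sams-1(ww51)*, and 460 and 35 for the mean. With the block, members lower and higher at an unadjusted limma p under 0.05 were 14 and 2 in *metr-1(ww52)* (5.87% and 15.1% of all genes). They were 15 and 2 in *mthf-1(ww50)* (4.64% and 15.7%) and 5 and 8 in *mtrr-1(ww56)* (15.1% and 23.2%). In *sams-1(ww51)* they were 6 and 4 (9.29% and 19.6%), and for the mean 13 and 6 (8.09% and 20.8%). The members tested include *gst-14* and *gst-19*, which passed the filter on low values only through *mtrr-1(ww56)* and *sams-1(ww51)*. Any part of the higher counts that comes from these genes is no support for a difference. For the mean of the 4 mutants the members' median log2 fold change was -0.07 from all libraries. Without parent replicate 1 it was 0.05 (0.03 for all genes), and without parent replicate 2 it was -0.31 (0.12 for all genes). Of 2477 alternative values for 140 member results, 41 changed sign, 34 without 1 library and 7 after median-ratio scaling. The range of the log2 fold change without 1 library is given for these, with the value from all libraries in brackets. In *metr-1(ww52)* it was -0.49 to 0.20 for *gst-4* (-0.15), -0.58 to 0.16 for *gst-42* (-0.21) and -0.23 to 0.65 for *gst-12* (0.21). In *mthf-1(ww50)* it was -0.0468 to 0.12 for *gst-43* (0.0377), -0.0181 to 0.36 for *gst-22* (0.17) and -0.15 to 0.0695 for *gst-33* (-0.0404). In *mtrr-1(ww56)* it was -0.16 to 0.23 for *gss-1* (0.0324), -0.33 to 0.12 for *gst-10* (-0.11), -0.54 to 0.29 for *gst-13* (-0.12), -0.24 to 0.18 for *gst-26* (-0.0327), -0.12 to 0.49 for *gst-27* (0.19), -0.26 to 0.48 for *gst-42* (0.11), -0.42 to 0.18 for *gst-5* (-0.12), -1.14 to 0.13 for *gsto-3* (-0.50), -0.63 to 0.30 for *gst-20* (-0.16) and -0.0169 to 0.46 for *gst-39* (0.22). In *sams-1(ww51)* it was -0.0401 to 0.28 for *gss-1* (0.12), -0.77 to 0.0486 for *gst-13* (-0.36), -0.0588 to 0.24 for *gst-26* (0.0886), -0.64 to 0.0495 for *gst-4* (-0.30), -0.14 to 0.60 for *gst-42* (0.23), -0.0014 to 0.87 for *gstk-1* (0.44) and -0.43 to 0.18 for *gst-22* (-0.12). For the mean it was -0.0066 to 0.0913 for *gss-1* (0.0424), -0.17 to 0.0371 for *gst-27* (-0.0682), -0.45 to 0.24 for *gst-4* (-0.11), -0.44 to 0.30 for *gst-42* (-0.072), -0.45 to 0.034 for *gstk-1* (-0.21) and -0.12 to 0.10 for *gst-33* (-0.0105). After scaling the values were -0.0209 for *gst-43* (0.081) in *metr-1(ww52)*, -0.0654 for *gss-1* (0.0467) and -0.0668 for *gst-43* (0.0377) in *mthf-1(ww50)*, -0.0802 for *gss-1* (0.0324) and -0.0007 for *gst-42* (0.11) in *mtrr-1(ww56)*, and -0.0613 for *gss-1* (0.0424) and -0.0218 for *gst-22* (0.0782) for the mean. The causes were not tested. TPM keeps no depth, and there are 2 libraries per strain.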
